A study of Danio rerio with 26 samples.

Results

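Whole-embryo RNA from zebrafish (Danio rerio) embryos homozygous for a frame-shifting magoh allele was compared at 21 hpf (hours post-fertilization) with RNA from their siblings of wild-type appearance. The comparison took 6 of the 26 samples of the series, 3 labelled mutant and 3 labelled sibling, all profiled by RNA-Seq, and covered 30919 genes, of which 30281 were tested. The allele, magoh oz37, was made with CRISPR/Cas9 in the AB strain, and the embryos came from intercrosses of heterozygotes, so mutants begin with Magoh supplied by the mother, a store that declines with age. The sibling libraries mixed wild-type and heterozygous embryos, which look alike, and each library pooled 25 embryos. The study calls the 3 replicates of each genotype biological. Whether they came from separate clutches is not given in the sources used here. The p-values thus measure only the spread between these libraries, part of which may be technical. RNA was depleted of ribosomal RNA and copied into strand-specific libraries, and at least 1 replicate was sequenced in a separate run.

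Magoh forms the core of the exon junction complex with Rbm8a (Y14) and the RNA helicase Eif4a3. The complex is left on messenger RNA just upstream of each splice junction. When translation stops with such a complex still bound downstream, the helicase Upf1 and its partners of the nonsense-mediated decay (NMD) pathway degrade the transcript, so transcripts with an intron in the 3′ untranslated region are natural NMD targets. Loss of the complex in the mouse brain is known to activate the p53 pathway.

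magoh embryos were genotyped by PCR and gel, and high-resolution melting analysis (HRMA) served to screen fish for new lesions. The primers of both assays are shown because they mark the site of the lesion that defines the mutants, and how each pool for RNA-Seq was sorted is not given in the sources used here. The primer list names the allele oz36 beside magoh where the study's text has oz37. Each pair is given 5′ to 3′ as the study designed it, and the capitals mark the stretch of 17 bases shared by the second primer of both pairs, one pair for gel genotyping and one for HRMA.
magoh genotyping primer 1: aagcgattcattgaaggaaca
magoh genotyping primer 2: GCGTCACTTACCGTCTGgtc
magoh HRMA primer 1: ggtttctttaataccgcgcac
magoh HRMA primer 2: ggcGCGTCACTTACCGTCTG

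The names of the library columns may not match their values, so every value below is given in a stated reading. By the names, the libraries labelled mutant 1, 2 and 3 were compared with those labelled sibling 1, 2 and 3. By place, the first 3 library columns of the file were compared with the last 3, and neither set was called mutant. The file order is mutant 1, sibling 1, mutant 2, sibling 2, mutant 3 and sibling 3, and values in file order below follow it. The readings agree on 4 libraries and differ only in sibling 1 and mutant 3, which change sides. Levels are FPKM, the reads of a gene scaled to its length and by a size factor of its library, described below.

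The libraries labelled mutant 1 and sibling 2 stood apart from the other 4, and each reading has 1 of them on each side. Mutant 1 and sibling 2 correlated with each other at r = 0.952 (Pearson, log2(FPKM + 1) over the genes tested). The other 4 correlated among themselves at 0.911 to 0.961, and any library of the pair with any of the 4 at 0.681 to 0.756. The first principal component, 79.6% of the variance, separated the pair from the 4. Both libraries of the pair were above all 4 others in 30.5% of the genes tested and below all 4 in 30.1%. Genes of at least 100 FPKM numbered 2106 in mutant 1 and 1922 in sibling 2, against 796 to 828 in the others. The reads recovered from the FPKM totalled 14884594 to 24086384 per library, 19536851 in mutant 1 and 16887646 in sibling 2. They followed gene length less closely in the pair, with r = 0.194 and 0.303 between log2 reads and log2 length against 0.471 to 0.546. What set the pair apart was not tested.

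The scale of the deposited values bears on the gap between these libraries. The FPKM were divided by size factors, which follow the typical gene, and in the pair these departed from the total reads. Setting each library to its total reads instead, a choice made after seeing the data, multiplies the FPKM by 0.320 in mutant 1 and by 0.753 in sibling 2, against 1.38 to 1.49 in the other 4. It moves the median fitted difference of all genes tested from 0.05 to -0.14 by the names, a shift of -0.19, and from 0.03 to -0.14 by place, a shift of -0.16. RPM below are reads per 1000000 recovered reads of a library, so they share this scale. Where a list median or fitted difference printed below changes sign on this scale, or groups said not to overlap do overlap in RPM, that is stated, and medians on this scale are to be read against -0.14.

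**Figure D1:**
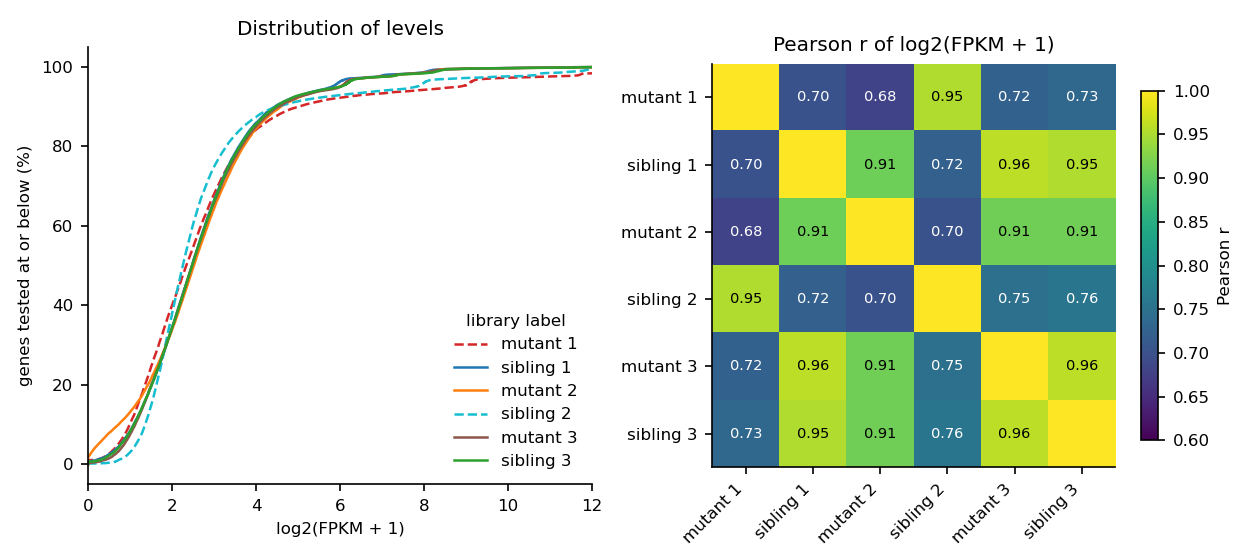
Left, the share of the 30281 tested genes (%) at or below each level, log2(FPKM + 1), 1 line per library, dashed for mutant 1 and sibling 2. Right, Pearson r of log2(FPKM + 1) for each pair of libraries, where mutant 1 and sibling 2 reach 0.95 with each other and 0.68 to 0.76 with the other 4.

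The pair differed from the others in genes of several tissues. The 81 ribosomal protein genes tested had a median of 406.3 FPKM in mutant 1 and 110.2 in sibling 2, against 10.998 to 16.0 in the other 4. In RPM the same medians were 125 and 86.5 against 18.8 to 21.4. Skeletal muscle markers had medians of 74.8 and 20.5 FPKM against 5.34 to 6.77, and periderm and skin markers 51.0 and 25.7 against 4.65 to 5.77. The lens markers went the other way, with medians of 3.35 and 3.46 FPKM in the pair against 7.21 to 9.73. Muscle, skin, neural and lens markers were all detected, as they should be in whole embryos. In bulk RNA of whole embryos, fewer cells of a type and less RNA per cell cannot be told apart.

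**Figure D2:**
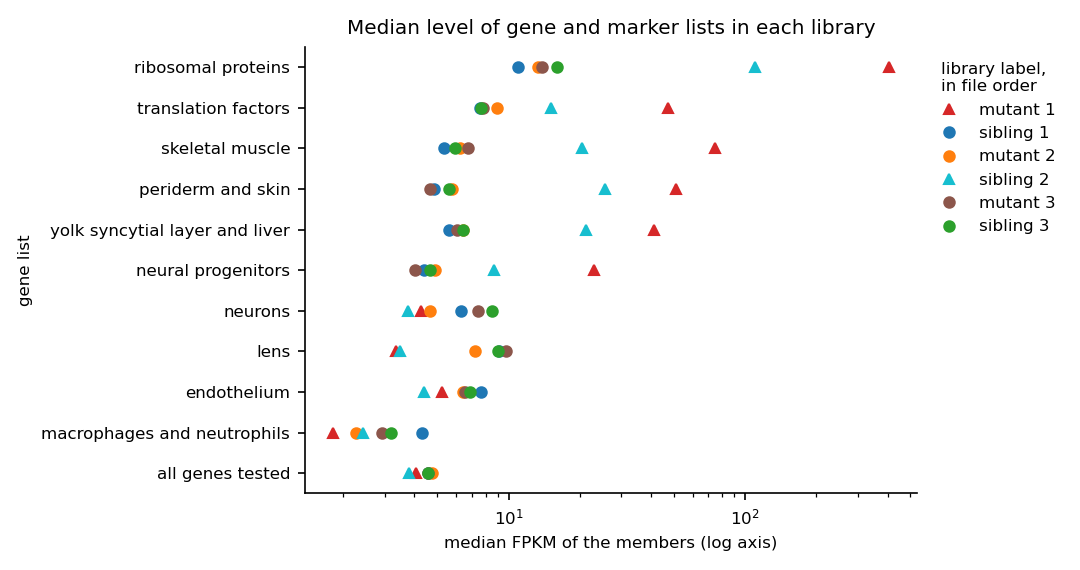
Median FPKM (log axis) of the members of 10 gene and marker lists and of all genes tested, 1 point per library, triangles for mutant 1 and sibling 2. Both triangles lie above the other libraries for ribosomal protein, translation factor, muscle, skin, yolk and neural progenitor genes. They lie below the other libraries for lens, endothelium and neuron genes.

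Whether magoh itself separated the labelled groups turned on the scale. In file order magoh (ENSDARG00000038635) stood at 17.005, 4.42, 3.67, 13.6, 3.58 and 6.51 FPKM. The libraries that stood apart held the highest values, mutant 1 was above every library labelled sibling, and the groups overlapped in both readings. By the names the mean log2(FPKM + 1) was 2.86 ± 1.13 (SD, n = 3) in mutants and 3.07 ± 0.73 (SD, n = 3) in siblings, a difference of -0.21 (two-sided exact permutation test, p = 0.8). By place the difference was -0.04 (p = 1.0 by the same exact test), and 3 libraries against 3 cannot go below p = 0.1. Leaving out each library in turn moved the difference from -0.86 to 0.19 by the names and from -0.66 to 0.39 by place, so its sign rests on single libraries.

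The reads behind these levels were 80, 74, 90, 130, 90 and 119 in file order, and in RPM 4.09, 4.97, 3.81, 7.70, 3.74 and 7.14. On that scale all 3 libraries labelled mutant lay below all 3 labelled sibling, an order found in 4.04% of the genes tested. The difference by the names was -0.65 (two-sided exact permutation test, p = 0.1, the smallest it can give), and by place it was -0.41 (p = 0.4 by the same test). Within the 4 similar libraries, mutants 2 and 3 lay below siblings 1 and 3 on both scales. The study reports, from its own fit of these libraries, that magoh transcripts were downregulated in the mutants. A frame-shifting lesion need not lower the transcript, and these counts are small.

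The partners of Magoh were not ordered alike. rbm8a, which encodes the partner that binds Magoh directly, stood at 42.5, 9.22, 6.94, 15.4, 6.60 and 9.51 FPKM in file order. As for magoh, mutant 1 was highest and the 2 lowest values were those labelled mutant 2 and mutant 3. eif4a3, the RNA helicase of the core, stood at 37.8, 9.00, 11.3, 11.7, 13.8 and 10.7 FPKM. By the names mutant 1 exceeded sibling 2, and mutants 2 and 3 exceeded siblings 1 and 3. Its fitted difference in limma was 0.68 by the names (standard error 0.27, unadjusted p = 0.0362, adjusted p = 0.847) and 0.33 by place (unadjusted p = 0.365). casc3, a peripheral subunit, stood at 16.7, 14.2, 11.5, 5.65, 10.6 and 12.2 FPKM, lowest in sibling 2 and overlapping between the groups in both readings. upf1 stood at 21.0, 10.8, 10.8, 10.1, 11.6 and 13.3 FPKM and overlapped in both readings too. In RPM rbm8a, eif4a3, casc3 and upf1 also overlapped in both readings, and for magoh alone of the 5 genes the labelled groups were apart.

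**Figure D3:**
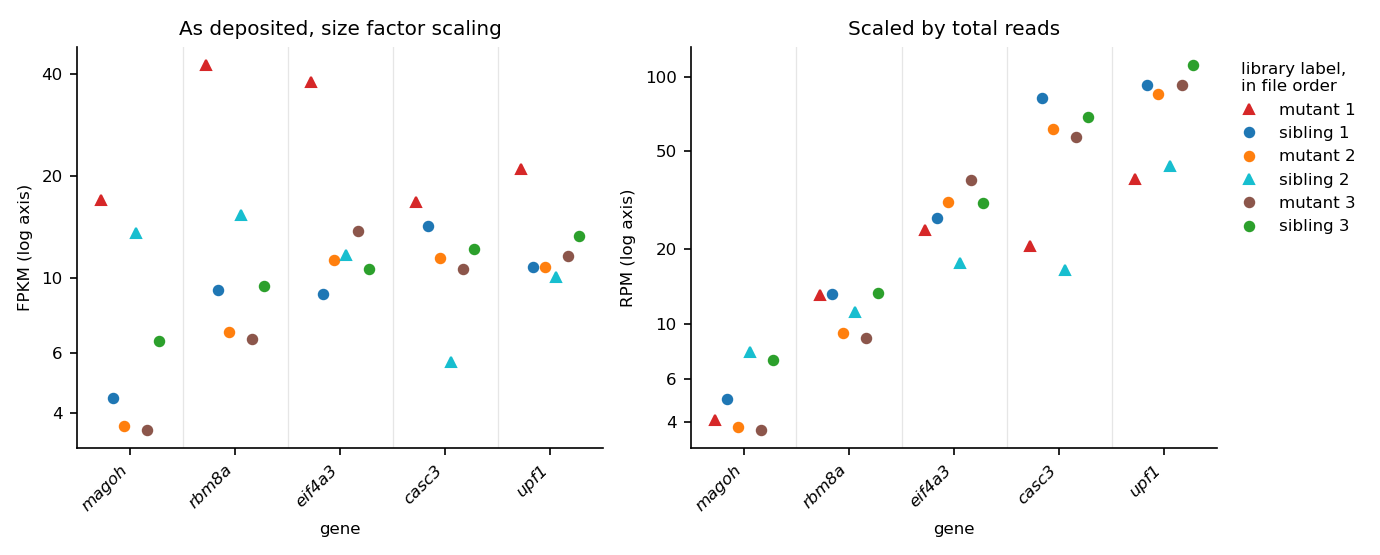
Levels of magoh, its core partners rbm8a and eif4a3, the peripheral subunit casc3 and upf1 (log axes), 1 point per library in file order, triangles for mutant 1 and sibling 2, in FPKM on the left and in RPM on the right. For magoh both triangles lie above the 4 other libraries on the left, and the 3 libraries labelled mutant lie below the 3 labelled sibling on the right, at 3.74 to 4.09 against 4.97 to 7.70.

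A call required a fold change of 1.5 or more together with a limma adjusted p below 0.05. Neither reading gave any, a percentage of 0 in each direction. At like thresholds the study reports genes raised and genes lowered in these mutants, from its own DESeq2 fit of read counts. The lack of calls thus applies to the limma fits of FPKM made here. By the names 1332 genes had an unadjusted p under 0.05, 730 higher in the libraries labelled mutant (2.41% of the genes tested) and 602 lower (1.99%), and the smallest adjusted p was 0.847. By place 1567 genes had one, 719 higher in the first 3 columns (2.37%) and 848 lower (2.8%), and the smallest adjusted p was 0.111. Together these were 4.399% of the genes tested by the names and 5.17% by place. The percentages higher and lower are the background for every count at an unadjusted p under 0.05 in the lists below. The 2 groups did not overlap in 1.93% of genes higher and 2.04% lower by the names, and in 1.87% higher and 2.34% lower by place. Without mutant 1 and sibling 2 there was again no call, with 894 genes at an unadjusted p under 0.05 by the names and 1321 by place. With the libraries that stood apart as a term there was no call either, with 1241 and 1387. By the names, leaving out mutant 3 raised that count to 3310, and by place leaving out sibling 1 raised it to 3630, each with no call. Scaled by total reads there was no call by the names, with 1495 genes at an unadjusted p under 0.05 and a smallest adjusted p of 0.823. By place that scale gave 14 calls, all lower in the first 3 columns. In FPKM no gene passed, so the genes below are described by their levels.

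MicroRNA genes had the smallest p in both readings. By place the leading gene was mir430a-11, a copy of the microRNA family that clears maternal messenger RNA in the early zebrafish embryo. It stood at 225, 0.535 and 0.365 FPKM in the first 3 columns and at 279, 16.0 and 12.7 in the last 3. Within the 4 similar libraries, sibling 1 and mutant 2 held 1 read each where mutant 3 held 45 and sibling 3 held 26, and mutant 1 held 118 against 299 in sibling 2. The fitted difference by place was -2.64 (standard error 0.31, limma unadjusted p = 2e-05, adjusted p = 0.111), and by the names it was -0.46 (limma adjusted p = 0.935). Scaled by total reads, mir430a-11 passed the call by place, at -3.34 (limma adjusted p = 0.00854, against 0.104 to 1.0 over the other alternatives, with the same sign in all).

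Of the 14 genes called on that scale, 12 carried microRNA symbols. They were 9 copies of mir430a (mir430a-1, mir430a-4 and mir430a-11 to mir430a-17), which are near-identical and share reads, together with mir130c-1, mir130c-2 and MIR19A. mir130c-1 held 4, 0 and 0 reads in the first 3 columns and 26, 23 and 10 in the last 3, and MIR19A held 12, 0 and 0 against 49, 14 and 5. Both were thus listed at 0 in sibling 1 and mutant 2 alone. The remaining 2, ENSDARG00000102920 and ENSDARG00000084411, have no symbol in the files and were also at 0 in those libraries. These 14 genes are named here after their values were seen. Whole-gene counts of short genes do not separate a precursor from its mature microRNA, and the reads behind them are few.

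By the names the smallest p of the genes that were lower belonged to mir210, a microRNA known to be induced by hypoxia. Siblings 1, 2 and 3 held 9, 2 and 11 reads of it, or 5.40, 2.098 and 6.05 FPKM, and mutants 1, 2 and 3 were each listed at 0. mir222 followed, at 18.8, 4.87, 0, 33.3, 1.08 and 4.09 FPKM in file order, as did mir219-1, which was highest in sibling 2 and listed at 0 in mutant 2.

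Of the protein-coding genes with the smallest p by the names, krtcap2, which encodes a subunit of the oligosaccharyltransferase complex, was higher in the libraries labelled mutant within both kinds of library. It stood at 14.601, 0.879, 2.84, 3.89, 3.98 and 0.483 FPKM in file order, so mutant 1 exceeded sibling 2, and mutants 2 and 3 exceeded siblings 1 and 3. The fitted difference was 1.37 (standard error 0.23, limma unadjusted p = 0.00039, adjusted p = 0.847). In RPM the labelled groups did not overlap, at 3.58, 3.01 and 4.23 in mutants 1, 2 and 3 and 1.01, 2.25 and 0.540 in siblings 1, 2 and 3. By place the sulfotransferase gene sult2st2 was among the genes with the smallest p, at 13.2, 3.91 and 6.52 FPKM in the first 3 columns against 2.57, 2.01 and 1.23 in the last 3, with no overlap. The keratin gene krt97 was ordered by place within both kinds of library, at 29.6, 4.404 and 5.38 FPKM against 7.44, 1.98 and 2.56.

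The study lists 14 genes as raised together in these magoh mutants, in its older rbm8a mutants and in its younger upf1 morphants, and all 14 had fitted differences above 0 in both readings. Over all genes tested 56.1% were above 0 by the names and 53.5% by place, the background for such counts over all 6 libraries here and below. In the 4 similar libraries alone, 16122 of the 30281 genes tested were above 0 by the names and 14454 by place. Mutant 1 exceeded sibling 2 in 52.2% of the genes tested in FPKM, and in 3121 of the 30281 when scaled by total reads. The study chose that list on these samples, so it is not independent evidence of a direction. Their median difference was 0.71 by the names and 0.78 by place, against 0.05 and 0.03 over all genes tested. By the names 3 of 14 had an unadjusted p under 0.05 (foxo3b, si:dkey-90a24.1 and si:ch211-92l17.1), and by place 10 of 14, all higher. The background for these counts was 2.41% and 2.37%. In mutant 1 all 14 exceeded sibling 2, with a median gap of 1.96 on the log2(FPKM + 1) scale, where over all genes tested the median gap was 0.04. That pair sits on the same sides in both readings, so the readings differ only in the other 4 libraries. There the median difference was 0.19 by the names and 0.33 by place. In 3 of 14, the genes just named, the libraries labelled mutant were higher within both kinds of library, against 8.74% of the genes tested. By place 8 of 14 were higher within both, against 7.58%, among them ccng1, foxi1, nupr1a, phlda3 and sesn3. Scaled by total reads, all 14 stayed above 0, at medians of 0.40 and 0.48 against -0.14, where 31.1% and 31.9% of all genes tested were above 0. On that scale the first 3 columns lay above the last 3 without overlap for 5 of 14, among them foxi1, foxo3b and phlda3, against 0.205% of the genes tested, and no member was apart by the names.

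Several genes of this list act in the p53 response. ccng1, the cyclin G gene that p53 induces, stood at 242, 11.2 and 9.75 FPKM in the first 3 columns and 28.8, 6.49 and 6.96 in the last 3. Within both kinds of library the first columns were higher, and the fitted difference by place was 1.24 (standard error 0.32, limma unadjusted p = 0.00464, adjusted p = 0.842).

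phlda3, a p53 target that restrains Akt signalling, stood at 26.3, 9.94 and 9.23 FPKM in the first 3 columns and at 1.80, 4.37 and 5.07 in the last 3, with no overlap. By place its difference was 1.67 (standard error 0.43, limma unadjusted p = 0.00465, adjusted p = 0.842), the largest of the 14. By the names it was 0.98 (limma adjusted p = 0.847), with sibling 1 at 9.94 FPKM and mutant 3 at 4.37. sesn3, a sestrin that restrains TORC1 signalling, stood at 26.1, 4.83, 5.67, 5.82, 4.07 and 3.52 FPKM in file order, and the first 3 columns were again higher within both kinds of library. foxi1, a forkhead gene of ear and ionocyte precursors, stood at 11.8, 2.89 and 3.26 FPKM in the first 3 columns and 2.39, 2.32 and 2.38 in the last 3, and did not overlap by place. nupr1a, which encodes a stress-induced chromatin protein, stood at 34.0, 8.75 and 11.1 FPKM against 5.46, 8.17 and 7.61 and did not overlap either, though in RPM it did.

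Another order held in FPKM for foxo3b and 2 unnamed genes. foxo3b, a forkhead factor of the apoptotic response, stood at 24.2, 4.44, 6.49, 5.31, 4.71 and 4.14 FPKM in file order. Mutants 2 and 3 lay above siblings 1 and 3, and mutant 1 above sibling 2. In RPM foxo3b was instead apart by place, at 36.0, 30.9 and 41.7 in the first 3 columns against 18.7, 30.4 and 28.1 in the last 3. Its fitted difference was 0.79 by the names (standard error 0.32, limma unadjusted p = 0.04, adjusted p = 0.847) and 0.77 by place (limma adjusted p = 0.842). si:dkey-90a24.1, which has no annotated role in the files, stood at 14.3, 0.406, 2.64, 3.37, 1.35 and 0.651 FPKM, likewise ordered by the names, with a fitted difference of 1.09 (limma unadjusted p = 0.00399, adjusted p = 0.847). si:ch211-92l17.1, also without an annotated role, stood at 10.1, 0.645, 1.89, 2.72, 0.883 and 0.625 FPKM. bbc3, which encodes the pro-apoptotic protein Puma, was ordered by neither reading, at 8.56, 19.6, 15.4, 2.76, 22.7 and 12.3 FPKM.

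**Figure D4:**
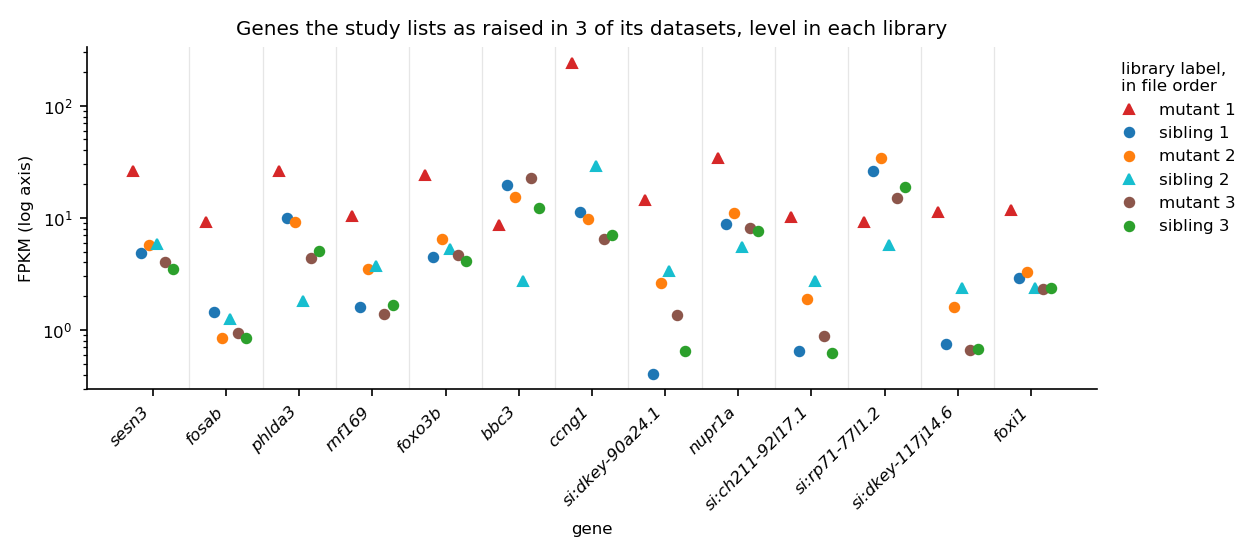
FPKM (log axis) of 13 of the 14 genes that the study lists as raised in 3 of its datasets, 1 point per library in file order, triangles for mutant 1 and sibling 2. Mutant 1 lies above sibling 2 for all 13 genes, and for phlda3 and ccng1 sibling 1 lies above mutant 3.

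In the wider p53 pathway, 28 of 36 genes tested were above 0 in each reading, with medians of 0.27 by the names and 0.30 by place. An unadjusted p under 0.05 was reached by 1 of 36 by the names (perp) and by 5 by place, among them ccng1, gadd45bb and phlda3, all higher. The medians scaled by total reads were 0.04 and 0.11. Mutant 1, which keeps its side in both readings, exceeded sibling 2 in 28 of 36, with a median gap of 0.73. Scaled by total reads it did so in 14 of 36, at a median gap of -0.27 against -0.70 over all genes tested. In the 4 similar libraries 17 of 36 were above 0 by the names and 22 by place. The medians there were -0.06 and 0.07, against 0.02 and -0.02 over all genes tested. In 6 of 36 the first 3 columns were higher within both kinds of library, with 1 lower (ddb2, a damage recognition gene), against a background of 7.58% and 8.38% of all genes tested. By the names the same rule found 5 higher (gadd45ab, mdm4, perp, rrm2b and sesn1) and 3 lower (ei24, gadd45ga and pidd1), against 8.74% and 6.65%. gadd45aa, a growth arrest gene, stood at 14.4, 7.21, 9.51, 3.18, 7.38 and 8.07 FPKM in file order, and the groups overlapped in both readings. tp53inp1, a p53-induced nuclear protein gene, stood at 10.8, 72.3, 56.3, 4.34, 84.0 and 57.5 FPKM, with both libraries that stood apart far below the rest. Of 33 caspase and BCL2 family genes, 1 was higher at an unadjusted p under 0.05 in each reading and none lower. It was birc2, an inhibitor of apoptosis, by the names (0.71, limma adjusted p = 0.847), and bcl2l1, an anti-apoptotic BCL2 gene, by place (0.65, limma adjusted p = 0.842). The median of the list was 0.15 by the names and 0.07 by place in FPKM and below 0, at -0.10 and -0.15, when scaled by total reads.

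Of 15 decay targets that the study names, from known human targets, from upf1 morphants and from its own overlaps with these samples, 13 were above 0 in each reading. The median difference was 0.50 by the names and 0.55 by place. An unadjusted p under 0.05 was reached by 2 of them by the names (foxo3b and phlda2) and 3 by place (foxo3b, nupr1a and phlda3). Mutant 1, which keeps its side in both readings, exceeded sibling 2 in 14 of 15, with a median gap of 1.67. In the 4 similar libraries 9 were above 0 by the names and 10 by place, at medians of 0.11 and 0.06. phlda2, a relative of phlda3, stood at 24.6, 1.95, 4.102, 6.24, 3.36 and 2.79 FPKM in file order, and by the names the libraries labelled mutant were higher within both kinds of library. The splicing factor gene srsf7a stood at 35.6, 9.98, 10.6, 10.9, 11.4 and 8.08 FPKM with the same order, at a difference of 0.64 by the names (limma adjusted p = 0.847) and 0.55 by place (limma adjusted p = 0.842). In RPM srsf7a lost that order, with mutant 2 at 33.8 below sibling 1 at 34.4. The 2 that were below 0 were the helicase gene eif4a2, at 12.5, 2.32, 0.125, 4.29, 3.22 and 3.15 FPKM, and atxn1b, at 5.94, 6.46, 7.19, 9.24, 7.12 and 6.64 FPKM. eif4a2 rested on 8 reads in mutant 2 and on 101 to 211 in the other libraries. Neither eif4a2 nor atxn1b reached an unadjusted p under 0.05 in either reading. By qRT-PCR the study reports eif4a2 and atxn1b as raised in magoh mutants of this age and in its older rbm8a mutants. The values here do not show that rise.

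Of 11 NMD factors tested, 9 were above 0 in each reading, with medians of 0.24 by the names and 0.20 by place. Mutant 1 exceeded sibling 2 in 10 of 11, and in the 4 similar libraries 8 were above 0 by the names and 5 by place. Scaled by total reads mutant 1 exceeded sibling 2 in 0 of 11, at a median gap of -0.42 against -0.70 over all genes tested. smg5, which recruits decay enzymes to Upf1, was the only member of that list with an unadjusted p under 0.05. It stood at 6.47, 4.38 and 4.03 FPKM in mutants 1, 2 and 3 and at 2.06, 3.17 and 3.59 in siblings 1, 2 and 3, so the labelled groups did not overlap in FPKM. In RPM they did, with mutant 1 lowest at 7.98 and siblings 1, 2 and 3 at 11.9, 9.24 and 20.2. The fitted difference of smg5 was 0.57 by the names (limma adjusted p = 0.847) and 0.10 by place, where it became -0.15 when scaled by total reads. Of the 18 genes of the exon junction complex and its partners, 1 was higher by the names at an unadjusted p under 0.05 (eif4a3) and 1 by place (sap18, a subunit of the peripheral ASAP complex), and none was lower.

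Chaperones of the endoplasmic reticulum, which fold secreted proteins, had medians above that of all genes in both readings. Of 26 tested, 24 were above 0 by the names and 21 by place, with medians of 0.42 and 0.41. Scaled by total reads the medians were 0.11 in both readings. An unadjusted p under 0.05 was reached by 5 by the names (calr, calr3a, dnajc3a, fkbp7 and pdia6) and by 4 by place (hspa5, pdia4, pdia6 and serpinh1b), all higher. Over all genes tested 2.41% were higher at that threshold by the names and 2.37% by place. hspa5, the gene of the chaperone BiP, stood at 97.2, 7.77 and 14.3 FPKM in the first 3 columns and 13.9, 4.83 and 6.22 in the last 3. By place the first columns were higher within both kinds of library, with a fitted difference of 1.36 (standard error 0.34, limma unadjusted p = 0.00362, adjusted p = 0.842), and by the names it was 0.91 (limma adjusted p = 0.847). serpinh1b, a collagen chaperone, was ordered in the same way by place, at 44.9, 4.43 and 7.99 FPKM against 9.82, 3.24 and 3.604. pdia6, a disulfide isomerase, did not overlap by place in FPKM, at 15.3, 5.67 and 11.5 against 4.73, 5.03 and 3.82, though in RPM it did. Of 30 genes of the integrated stress response, 3 reached an unadjusted p under 0.05 by the names (chac1, herpud1 and ppp1r15a) and 5 by place (atf5a, chac1, eif4ebp1, nupr1a and trib3), all higher, and chac1, a glutathione-degrading enzyme induced by Atf4, reached it in both. chac1 stood at 42.5, 3.09, 3.34, 5.84, 3.52 and 1.88 FPKM in file order.

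The lists of chaperones and of the translation machinery also differed between mutant 1 and sibling 2. The median gap between those libraries was 1.32 for the chaperones, 1.53 for the cytosolic heat shock genes, 1.75 for the ribosomal protein genes and 1.42 for the translation factors, against 0.04 over all genes tested. Scaled by total reads the gaps were 0.24, 0.36, 0.52 and 0.24 against -0.70. In the 4 similar libraries alone the chaperones differed by 0.25 by the names and 0.06 by place, and the ribosomal protein genes by 0.06 and -0.15. The part of that gap in the medians was not tested.

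**Figure D5:**
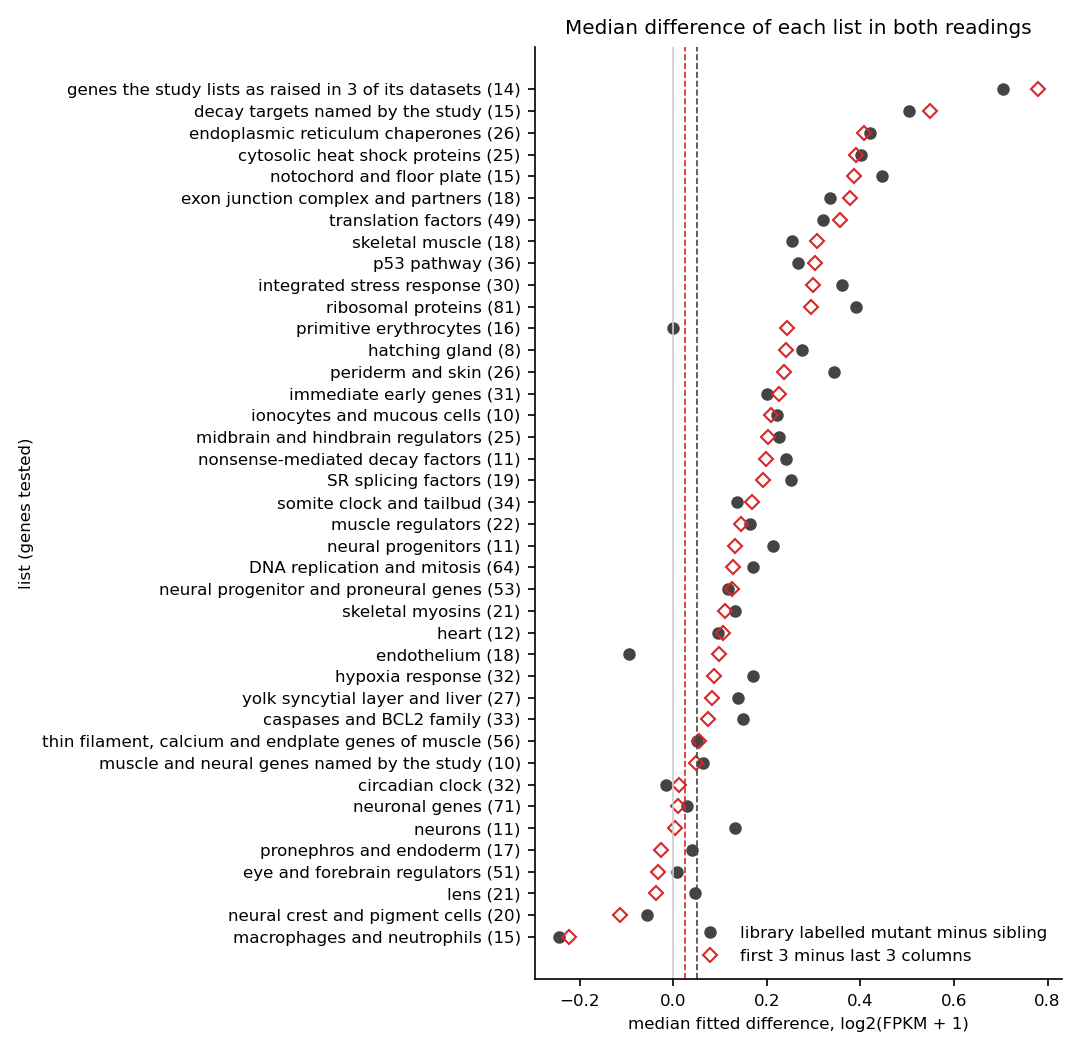
Median fitted difference on the log2(FPKM + 1) scale of each list with at least 5 genes tested, filled circles for the libraries labelled mutant minus sibling and open diamonds for the first 3 minus the last 3 columns, dashed lines for all genes tested (0.05 and 0.03). The genes the study lists as raised lie highest, at 0.71 and 0.78, and macrophage and neutrophil markers lowest, at -0.24 and -0.22. The list shown as muscle and neural genes named by the study also holds tp53inp1, casp8 and mob4, so its median has no single reported direction.

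Ribosomal protein genes were mostly above 0 in FPKM, but not when scaled by total reads. On that scale 38.3% were above 0 by the names and 33.3% by place, against 31.1% and 31.9% of all genes tested. The study reports, from its own fit of these mutants, that structural constituents of the ribosome were enriched among downregulated genes. In FPKM 74 of 81 were above 0 by the names, and 13 had an unadjusted p under 0.05, all higher. The list median of 0.39 by the names became -0.08 when scaled by total reads. By place 67 were above 0 and 5 had one (rpl14, rpl18, rpl36a, rps13 and rpsa), with a median of 0.29 that became -0.12. In 21 of 81 the libraries labelled mutant were higher within both kinds of library, against 8.74% of all genes tested, and by place in 1 (rpl36a). eef2b, the translation elongation factor gene, stood at 1072, 17.9, 32.5, 206, 23.6 and 21.5 FPKM, at 0.81 by the names (limma adjusted p = 0.847) and 0.66 by place (limma adjusted p = 0.842). Of 49 translation factors, 5 were higher by the names at an unadjusted p under 0.05 (eef2b, eif5, nhp2, nop58 and pabpc1b), and 2 higher (eif3ha and nop56) and 1 lower (eef1a2) by place. Their medians of 0.32 by the names and 0.36 by place became -0.04 and 0.01 when scaled by total reads.

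Some genes of the tailbud and of forming somites were higher by place. Of 34 tested, 6 had an unadjusted p under 0.05, all higher in the first 3 columns (her15.1 and her15.2, which are near copies, hoxa13b, mespaa, noto and ta), where by the names 1 was lower (mespbb). Over all genes tested 2.37% were higher at that threshold by place and 1.99% lower by the names. The median of the list was 0.17 by place and 0.14 by the names, and 0.01 and -0.08 when scaled by total reads. The median difference in the 4 similar libraries was 0.21 by place and 0.13 by the names. noto, a homeobox gene of the notochord, stood at 2.52, 4.16 and 6.50 FPKM in the first 3 columns and 0.927, 2.18 and 1.74 in the last 3, with no overlap in FPKM but with overlap in RPM. The Brachyury gene ta, needed for notochord and tail, stood at 8.52, 3.60 and 5.49 FPKM against 3.91, 2.82 and 2.54, and mespaa, a segmentation gene, at 1.76, 3.81 and 4.09 against 0.863, 2.43 and 1.22. In FPKM both were higher within both kinds of library. Scaled by total reads, mutant 1 lay below sibling 2 for both. The limma unadjusted p by place was 0.00235 for noto, 0.018 for ta and 0.0149 for mespaa, each with an adjusted p of 0.842. hoxb1b, an early hindbrain and trunk gene, was ordered alike in FPKM, at 7.38, 3.28 and 7.09 FPKM against 2.72, 1.18 and 1.82, as was dlx5a, of the forebrain and branchial arches, at 13.2, 4.95 and 6.76 against 3.59, 3.40 and 3.14, and both overlapped by place in RPM.

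Some eye and neuron genes went the other way by place. rho, the rod opsin gene, stood at 1.40, 5.98 and 3.93 FPKM in the first 3 columns and at 3.10, 8.31 and 7.90 in the last 3. syn2a, a synaptic vesicle gene, stood at 1.86, 6.90 and 4.76 FPKM against 3.16, 11.9 and 12.1, and six6a, a regulator of the retina, at 2.43, 16.3 and 17.3 against 6.19, 21.4 and 24.4. In all 3 the first columns were lower within both kinds of library, at fitted differences by place of -0.63, -0.75 and -0.55 (limma unadjusted p = 0.0253, 0.0207 and 0.0319, adjusted p = 0.842 each). By the names the same genes differed by -0.32, -0.24 and -0.24. Of 71 neuronal genes 2 were higher (mnx2b and stxbp1a) and 4 lower (camk4, neflb, slc18a3a and syn2a) by place at an unadjusted p under 0.05, and 0 higher and 2 lower (camk4 and slc18a3a) by the names, at medians of 0.01 and 0.03 that became -0.09 and -0.10 when scaled by total reads. Of 51 eye and forebrain regulators 1 was higher (dlx5a) and 2 lower (rho and six6a) by place. Within both kinds of library, 6 of the 51 were lower by place and 6 higher. Of the 71 neuronal genes 11 were lower and 5 higher by that rule. Over all genes tested 8.38% were lower and 7.58% higher.

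A list of 10 genes that the study names held muscle and neural genes, the cell death genes tp53inp1 and casp8, and mob4, its qRT-PCR reference. Of these 10, camk4, a calcium-dependent kinase of neurons, reached an unadjusted p under 0.05 in both readings. It stood at 9.43, 4.96, 1.78, 27.6, 5.44 and 5.46 FPKM in file order, lower by -0.97 by the names (standard error 0.38) and by -1.003 by place (standard error 0.37). By place the first columns were lower within both kinds of library, though sibling 1 at 4.96 lay close to mutant 3 at 5.44. lnx2b, at 5.32, 2.18, 3.22, 11.1, 2.57 and 3.54 FPKM, and st8sia5, a sialyltransferase gene, at 7.40, 7.23, 7.44, 12.2, 6.63 and 7.04 FPKM, were highest in sibling 2. The myosin genes gave no common order. myhz2, a fast myosin heavy chain gene, stood at 105, 20.2, 24.8, 80.0, 17.7 and 23.2 FPKM, and the myosin light chain gene myl10 at 111, 1.53, 0.522, 32.1, 6.26 and 4.57. Within the 4 similar libraries myl10 was lower in sibling 1 and mutant 2 than in mutant 3 and sibling 3, while mutant 1 was above sibling 2.

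Of 21 skeletal myosin genes, 3 were higher by the names at an unadjusted p under 0.05 (smyhc1, smyhc2 and mybphb) and 0 by place, and 0 were lower in either. smyhc1, a slow myosin heavy chain gene, stood at 86.9, 6.65, 8.91, 20.3, 7.45 and 6.14 FPKM in file order. Its near-identical neighbour smyhc2 shares reads with it and is uncertain for that reason. Of 56 thin filament, calcium and endplate genes 2 were higher (atp2a1 and tnni2b.1) and 3 lower (chrnb1l, pvalb3 and tnnt2d) by the names, and 2 higher (tpm2 and tpma) and 1 lower (pvalb2) by place. The muscle regulators myod1, at 33.1, 5.05, 8.86, 16.4, 6.52 and 5.93 FPKM, and myog, at 19.4, 4.90, 3.18, 5.95, 3.59 and 3.37, overlapped in both readings.

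Markers of other cell types in the embryo gave few members past an unadjusted p of 0.05. Of 15 macrophage and neutrophil markers 2 were above 0 by the names (marco and spi1b) and 5 by place, with medians of -0.24 and -0.22 and none at an unadjusted p under 0.05. Their median level was 1.80, 4.31, 2.28, 2.41, 2.92 and 3.19 FPKM in file order. Of 16 markers of primitive erythrocytes, 1 was higher (urod) and 1 lower by place. The one lower was the embryonic globin gene hbbe2, at 4.23, 0.372 and 0.203 FPKM in the first 3 columns and 4.67, 3.71 and 2.04 in the last 3, with a fitted difference of -1.14 by place (limma unadjusted p = 0.00634, adjusted p = 0.842) and 0.02 by the names, which became -0.23 when scaled by total reads. Embryonic globin genes are near copies of each other and are uncertain for that reason. All 15 notochord and floor plate markers were above 0 in both readings, at medians of 0.45 by the names and 0.39 by place. Scaled by total reads these medians were 0.12 and 0.15. Mutant 1 exceeded sibling 2 in 14 of 15. Scaled by total reads it did so in 5 of 15, at a median gap of -0.08 against -0.70 over all genes tested. In the 4 similar libraries 10 were above 0 by the names and 8 by place. By place 2 of the 15, noto and ta, reached an unadjusted p under 0.05.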

How the data were processed

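RNA-Seq values of 6 whole-embryo libraries were taken as deposited. Reads were trimmed with cutadapt 1.16 and aligned to GRCz10 with TopHat2 2.0.14 according to the submitters' processing notes, and counted per gene and compared in DESeq2 by the authors. The deposited FPKM values were made by the authors from these counts, scaled to gene length and by DESeq2 size factors. The deposited mean signal per gene (the mean of size factor scaled counts over the 6 libraries) served only to recover whole reads from the FPKM, which came out whole within 0.05 in 100% of the values under 200 reads. Columns of log2 fold change, standard error and p-values from the authors' own comparison were present and not used. Symbols came from the table for 21750 genes and from the reference names for 5252, while 3917 kept an ID alone. 4 other tables of the series were not used here.

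Genes that reached 0.5 FPKM in 3 or more libraries were fitted with limma 3.58.1 (R 4.3.3, trended prior) on log2(FPKM + 1), with 1 RUVs factor computed from libraries of one group and Benjamini-Hochberg adjustment over all genes tested. Fold changes on this scale understate those of low genes. Calls were made below an adjusted p of 0.05 for changes of 1.5-fold or more. The magoh level was compared with a two-sided exact permutation test. An order within both kinds of library means mutant 1 against sibling 2 and the 2 against 2 others, all on the same side. The code was tested on simulated data. Python 3.11.15, pandas 2.3.3, numpy 2.4.6, scipy 1.17.1 and matplotlib 3.10.9 were used.

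The genes named were magoh, its core partners and upf1, the genes of the lists the study names, the 5 genes with the smallest p in each direction and reading (symbol, mean FPKM of at least 1), up to 4 members of each list with the smallest p and the 5 genes with the highest mean FPKM. Genes given in brackets after a count and the genes called when scaled by total reads were chosen after their values were seen. The members and lists were chosen with earlier results of these data known. Alternatives were the number of RUVs factors, the pseudocount, the low value filter, quantile normalization, leaving out each library and the replicate block. Fits with the kind of library as a term, with the 4 similar libraries alone and with total reads as the scale were added after seeing the data. A few single genes that the naming rule includes are not reported here.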

Additional observations from a re-analysis of the deposited data

How the results depend on the processing

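No gene was called by the names under any of the 17 alternatives run, and none by place under 15 of 16. Scaled by total reads, a setting chosen after seeing the data, 14 genes were called by place, and the cause of the difference was not tested. The difference in magoh level ranged from -0.86 to 0.19 by the names and from -0.66 to 0.39 by place as each library was left out. It was above 0 by the names without mutant 2, sibling 2 or mutant 3 (0.11, 0.19 and 0.13), and by place without sibling 1, mutant 2 or sibling 2 (0.21, 0.32 and 0.39).

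The fit with the replicate number as a block gave 0 calls by the names, with 141 genes at an unadjusted p under 0.05. Same-numbered libraries deviated from their group means with r = -0.776, -0.708 and 0.645. The sign followed the kind of library, with 0.857 between mutant 1 and sibling 2. These values therefore cannot show whether the numbers pair the libraries. The place reading carries no replicate numbers, so no such fit was made for it.

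Of 396 fitted differences of named genes, 266 kept their sign under every alternative. Scaling by total reads changed the sign of 54 of them and of 42 of 80 list medians, and 17 of those medians moved by more than the spread of the libraries. Under the other settings 31 of 400 list medians changed sign and 1 moved that far, the ionocyte markers by the names, at 0.10 under quantile normalization. Without a RUVs factor 214 genes by the names and 252 by place had an unadjusted p under 0.05, and with 2 factors 2054 and 2266. Each side had 3 libraries, 1 of which stood apart.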

Other observations

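Periderm and skin, yolk and vessel markers were measured beside the lists above. Of 26 periderm and skin markers 3 were higher (cldne, evpla and ppl) and 1 lower (anxa1b) by the names at an unadjusted p under 0.05, and 2 higher (agr1 and krt8) and 2 lower (icn and icn2) by place. Of 27 yolk syncytial layer and liver markers 3 were higher by the names (apoa1a, apobb.1 and apoc2) and 1 by place (apoa4b.1). apoa1a, which encodes a major apolipoprotein, stood at 1536, 20.8, 39.8, 312, 29.2 and 24.3 FPKM in file order, so both libraries that stood apart were far above the rest. Of 18 endothelial markers 2 were higher by place (egfl7 and etv2). etv2, a master regulator of vessel precursors, stood at 8.27, 14.4 and 13.98 FPKM in the first 3 columns and at 2.95, 10.5 and 10.4 in the last 3, higher in the first columns within both kinds of library.

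Neural progenitor genes gave another order. Of 53 neural progenitor and proneural genes 2 were higher by the names at an unadjusted p under 0.05 (her6 and olig4) and 4 lower (fabp7a and the near copies her4.1, her4.2 and her4.4, which are uncertain for that reason). fabp7a, a lipid-binding protein gene of radial glia, stood at 22.9, 4.39, 0.803, 17.4, 2.58 and 4.68 FPKM in file order. Mutants 2 and 3 lay below siblings 1 and 3, while mutant 1 lay above sibling 2. Of 64 DNA replication and mitosis genes 3 were higher by the names (aurka, bub1ba and ccnd2a) and 1 by place (mcm2), and of 21 lens markers 1 was higher (cryba4) and 1 lower (crygn2) by place. None of these genes passed the call in FPKM.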
